A study of Camponotus floridanus with 48 samples.

Results

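The 15 larvae described here are those of 48 carpenter ant larvae (Camponotus floridanus) whose libraries scored above 20 on the first principal component of gene expression, which held 44.02% of the variance over all 48 libraries. They are larvae No. 3, 4, 6, 9, 15, 17, 29, 31, 32, 33, 36, 38, 49, 53 and 68. Their scores ran from 27.9 to 120.6, with a median of 68.75, while the other 33 larvae scored -62.9 to 5.84. The lowest score among the 15 was that of No. 6, at 27.9, and the highest score left outside was 5.84. The choice was therefore made on expression values, and these scores are a description with no test. Body length played no part in it. The measurements below concern how gene expression moved with length among these 15 larvae and how far that slope differed from the slope among the other 33.

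All 48 animals were females in their terminal larval stage, from 1 colony, each sequenced as 1 whole-body library of polyadenylated RNA. The labels give no treatment, genotype or collection batch, and no label sets the 15 apart from the rest. With 1 colony, p-values describe the spread among its larvae and not among colonies. Carpenter ant workers vary continuously in adult size within a colony, and the final larval stage is the last in which a worker grows before metamorphosis. The length of a terminal larva therefore reflects both the size it may reach and how far it has come within the stage. In holometabolous insects the end of larval feeding brings a broad turnover of transcripts before the pupal moult, including those for cuticle, storage proteins and gut.

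The 15 larvae measured 4648.07 to 7462.34 µm, with a mean of 6323 ± 731 µm (SD, n = 15), and the other 33 measured 4783.45 to 7598.06 µm, with a mean of 5953 ± 959 µm (SD, n = 33). Lengths within the 15 were uneven. No. 15 (4648.07 µm) and No. 9 (4942.55 µm) were the shortest, followed after a gap of 908 µm by 12 larvae from 5850.88 µm (No. 17) to 6892.55 µm (No. 3), and after a further 570 µm by No. 68 (7462.34 µm). The span of those 12 larvae held only 2 of the other 33, of which 21 were shorter and 10 longer. Each of the 15 libraries held 29813793 to 52469217 estimated reads (median 39946416), against 6608775 to 63171625 (median 44450880) in the 33. The spread between larvae of like length was wider in the 15, with a common biological coefficient of variation of 0.387 against 0.300, and the median standard error (SE) of a gene's slope was 0.12 log2 per mm in the 15 and 0.05 in the 33.

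The 10 genes of highest mean level in the 15 took 13.64 to 25.62% of the reads there (median 22.15%). The same 10 genes took 10.21 to 17.79% (median 13.1%) in the 33. They were picked in the 15, so a higher share there was partly fixed by that choice. In each library, the log2 deviations of genes from their means were regressed on log2 transcript length. The slope of that fit, here called the transcript-length trend, was -0.329 to -0.025 in the 15 libraries and -0.127 to 0.225 in the 33. Within the 15, neither measure nor the total count moved detectably with larval length. Pearson's r was 0.147 for the share of the top 10 genes, -0.142 for the transcript-length trend and 0.196 for the total count. Each had an adjusted permutation p of 0.719 from 100000 two-sided resamples, with the adjustment over r and rho of 7 relations together. Spearman's rho was 0.0821, -0.175 and 0.293, with adjusted p-values of 0.773, 0.719 and 0.55.

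**Figure D1:**
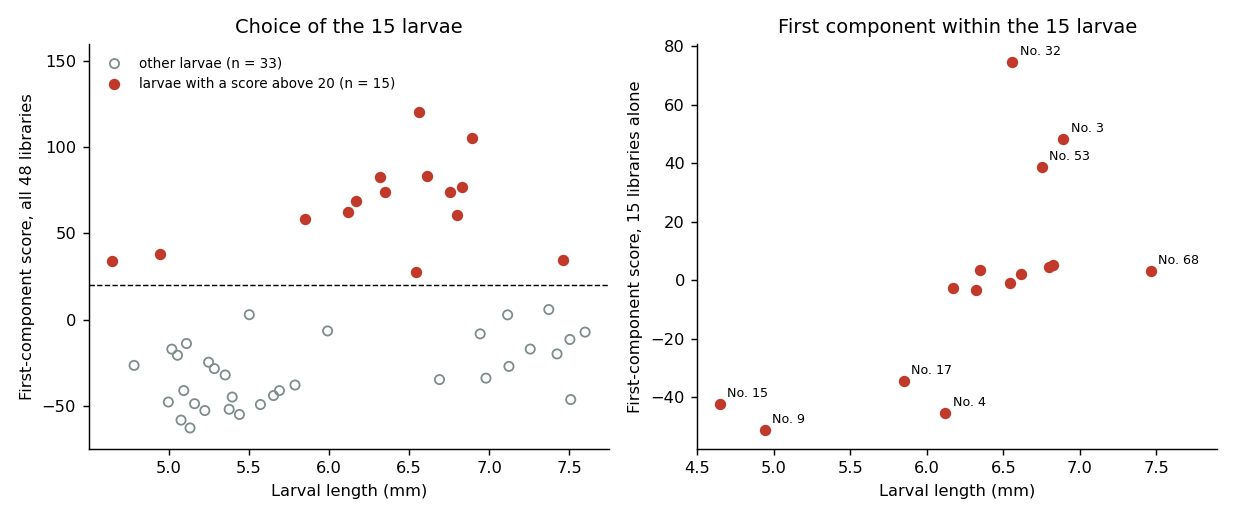
Left, score on the first component of all 48 libraries against larval length in mm, with the 15 larvae as filled points, the other 33 as open points and the limit of 20 dashed. Right, score on the first component computed from the 15 libraries alone, against length; No. 15, 9, 17 and 4 lie lowest, No. 32, 3 and 53 highest, and the longest larva, No. 68, lies in the middle.

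Scores on the first component computed from the 15 libraries alone moved with larval length. This component held 27.24% of their variance. The sign of each component of the 15 was set so that its r with length was positive. The shortest larvae, No. 15, 9, 17 and 4, scored lowest and No. 32, 3 and 53 highest, while the longest larva, No. 68, scored near the middle. Across the 15, Spearman's rho between this score and length was 0.814 (permutation p = 0.00039, adjusted p = 0.00546). Pearson's r was 0.665 (permutation p = 0.00725, adjusted p = 0.0507), and the adjustment covered r and rho of the 7 relations together. Without No. 9 and 15, the pair farthest from the median length, rho was 0.736 (adjusted p = 0.0767) and r was 0.475 (adjusted p = 0.293). In the 12 larvae of intermediate length alone, rho was 0.832 (adjusted p = 0.0185) and r was 0.665 (adjusted p = 0.125), as large as over all 15. Both subsets kept the scores of the component computed from all 15, which was not computed anew. The next 2 components of the 15 held 21.98 and 15.2% of their variance and gave r = 0.114 and 0.288 with length. The score that chose the 15 gave r = 0.367 and rho = 0.368 (adjusted p = 0.502 for both).

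The genes with the heaviest weight on this component were very high in a few of the longer larvae. LOC105248824 stood at 10167 CPM (counts scaled to the same library size after TMM scaling) in No. 32, 5137.5 in No. 3, 1717.2 in No. 53 and 1049.5 in No. 68. In the other 11 larvae it ran from 0.257 to 64.3 CPM, and in the 33 from 0 to 132.5 CPM with a median of 1.53. These genes were picked after their values had been seen. LOC105254728 was likewise highest in No. 3 (3961 CPM), No. 32 (3323.2), No. 53 (720.54) and No. 68 (249.15), and at most 33.4 CPM in the other 11. LOC109609707 reached 1124.7 CPM in No. 32, 286.33 in No. 3, 167.82 in No. 53 and 33.268 in No. 68, and LOC105254657 reached 529.41, 157.94, 118.98 and 16.492 CPM in the same order. All 4 genes are protein-coding in the annotation, and the larvae high in one were high in the others. Their slopes within the 15 were steep and uncertain, as for LOC105248824 at 4.57 ± 1.91 log2 per mm (SE), and none passed the test (adjusted p of 0.21 to 0.31, edgeR quasi-likelihood test).

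At the other end of the component stood 3 genes that were detected in some larvae and at or near 0 in others. Both kinds of larvae were mixed among the 12 of intermediate length. The shortest larvae, No. 15 and 9, had all 3 genes, and the longest, No. 68, was at 0. LOC112637027 ran from 23.2 to 59.0 CPM in 9 of the 15 and was at 0 to 0.143 CPM in No. 17, 36, 32, 53, 29 and 68. The pseudogene LOC112638006 and the protein-coding LOC112639836 were at or near 0 in the same 6 larvae and at 10.5 CPM or more in the other 9. Among the 33, each of these 3 genes also ran from 0 upwards, to 40.7 CPM for LOC112637027. Their slopes did not pass the test within the 15 (adjusted p of 0.63 to 0.72 in edgeR).

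Gene by gene, 171 of 10513 genes tested (1.63%) changed with length within the 15 at a Benjamini-Hochberg adjusted p under 0.05 in edgeR's quasi-likelihood test. Of these, 28 rose with length (0.266% of the genes tested) and 143 fell (1.36%). In whole-body RNA, fewer cells of a type and less RNA per cell cannot be told apart in any of them. The median slope was 0.78 log2 per mm for the rising genes and -0.52 for the falling ones, beside 0.00 over all genes tested. A slope beyond 1 log2 per mm was seen in 10 rising and 14 falling genes. At an unadjusted p under 0.05 stood 1833 genes, 17.4% of those tested. In the other 33 larvae, 3524 of 10481 genes (33.6%) changed with length, 1755 upwards (16.7%) and 1769 downwards (16.9%), and 43% stood at an unadjusted p under 0.05. That set is larger and less variable, so the counts cannot be read as a difference in how many genes respond. Counts in the 15 moved with the test, to 804 in DESeq2 (450 rising, 354 falling) and 351 in limma-voom. With the transcript-length trend of each library as a covariate, edgeR called 367.

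The calls depended on both shortest larvae. In 19 of the 28 rising genes No. 9 and 15 both lay below all 13 longer larvae, and in 120 of the 143 falling genes both lay above all 13. Over all genes tested, 4.58% had both below and 4.39% both above. Without No. 9, the count of called genes was 15 (1 rising, 14 falling), and without No. 15 it was 32. Without both, 0 of 10428 genes passed in edgeR, with 660 at an unadjusted p under 0.05, and within the 12 intermediate larvae 0 of 10395 passed, with 725 at an unadjusted p under 0.05. Leaving out No. 68, the longest, raised the count to 407 (156 rising, 251 falling), and 156 of the 171 genes were kept. Without No. 17, 49 or 53 the count was 112, 100 or 102, and without any other larva it lay between 121 and 239. Within the 12 intermediate larvae, 26 of the 27 rising genes still tested and 139 of the 140 falling ones had a slope of the same sign, with medians of 0.91 and -0.65 log2 per mm, but these larvae also helped to choose the genes.

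**Figure D2:**
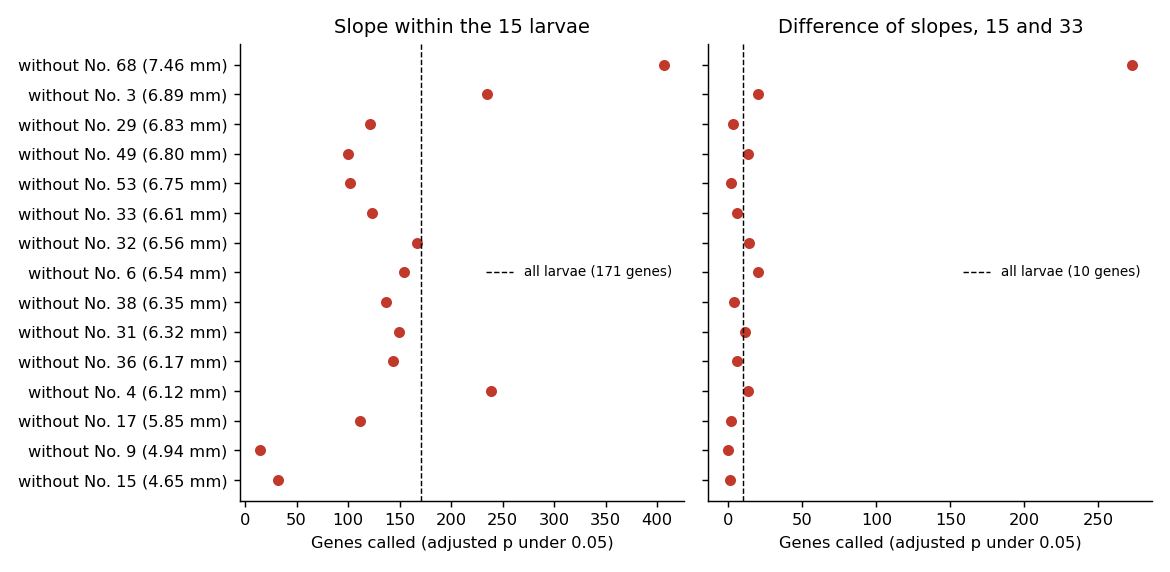
Number of genes with an adjusted p under 0.05 (x axis) when the larva named on the y axis is left out, for the slope within the 15 larvae (left) and for the difference of slopes between the 15 and the other 33 (right). Dashed lines mark the counts with all larvae, 171 and 10; without No. 9 they were 15 and 0, and without No. 68 they were 407 and 273.

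Among the falling genes, LOC105253988, a protein-coding gene, had the smallest p. It stood at 48.7 CPM in No. 15 and 32.7 in No. 9, at 0.443 to 2.44 CPM (median 0.960) in the 12 intermediate larvae and at 0.524 CPM in No. 68. Both shortest larvae lay above all the others, with no overlap, and the next larva by length, No. 17, was already among the low ones. The slope was -2.46 ± 0.25 log2 per mm (SE, n = 15, adjusted p = 0.000531, edgeR), and within the 12 it was -0.40 (adjusted p = 0.955). In the 33 the same gene ran from 0.620 to 173 CPM (median 62.3) and fell by 1.43 ± 0.28 log2 per mm. Its neighbour in the annotation, the long non-coding RNA LOC105256702, moved with it. That gene stood at 44.3 CPM in No. 15, 27.4 in No. 9, 0.177 to 2.63 (median 0.649) in the 12 and 0.545 in No. 68, with a slope of -2.63 ± 0.32 (adjusted p = 0.00112, edgeR). The sources used here do not say whether the authors' counting kept reads of these neighbours apart by strand.

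LOC105251399 declined over a narrower range. It was at 17.7 CPM in No. 15 and 18.6 in No. 9, at 6.78 to 12.2 CPM (median 8.16) in the 12 intermediate larvae and at 7.5 in No. 68. Both shortest larvae again lay above the rest, and within the 12 the slope was -0.74, which was not called (adjusted p = 0.476). Its slope was -0.59 ± 0.07 log2 per mm (adjusted p = 0.00112, edgeR). In the 33, the 11 shortest averaged 13.05 ± 1.78 CPM (SD) and the 11 longest 7.31 ± 2.39, with a slope of -0.39 ± 0.06, and the difference between both slopes was not called (adjusted p = 0.462). LOC105254428 fell by 1.09 ± 0.12 log2 per mm, from 305 and 456 CPM in No. 15 and 9 to 58.2 to 183 in the 12 and 67.8 in No. 68. The remaining 4 named falling genes, LOC105253619, LOC105256681, LOC105254693 and LOC105251842, had slopes of -0.57 to -0.51 log2 per mm with adjusted p-values of 0.00112 to 0.00215 (edgeR). In each of the 8, all 12 intermediate larvae lay below both shortest ones.

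In the main edgeR fit, rising genes were fewer and their adjusted p-values larger, while DESeq2 called 450 rising and 354 falling. LOC105248781 stood at 13.9 CPM in No. 15 and 16.7 in No. 9, at 37.2 to 133 CPM (median 70.7) in the 12 intermediate larvae and at 93.4 in No. 68. Both shortest larvae lay below every longer one and below the median of the 33, 19.2 CPM. In the 33 the gene ran from 14.2 to 80.3 CPM, so No. 15 lay just under that range. Its slope was 1.12 ± 0.21 log2 per mm in the 15 (adjusted p = 0.0132, edgeR) and 0.75 ± 0.08 in the 33, and the next gene in the annotation, LOC112637522, was also called as rising. LOC105253297 was at 62.8 and 66.9 CPM in No. 15 and 9, at 146 to 462 (median 273) in the 12 and at 214 in No. 68. It rose by 1.03 ± 0.20 log2 per mm in the 15 and by 0.54 ± 0.06 in the 33, and within the 12 its slope was 1.29, which was not called (adjusted p = 0.476). LOC105258967, at 1.81 and 1.69 CPM in No. 15 and 9 and 3.78 to 12.2 in the 12, rose by 1.02 ± 0.19. The slopes of LOC105258651, LOC105257265 and LOC105252124 were 0.76, 0.47 and 0.46 log2 per mm (adjusted p of 0.0186, 0.0248 and 0.0306, edgeR).

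**Figure D3:**
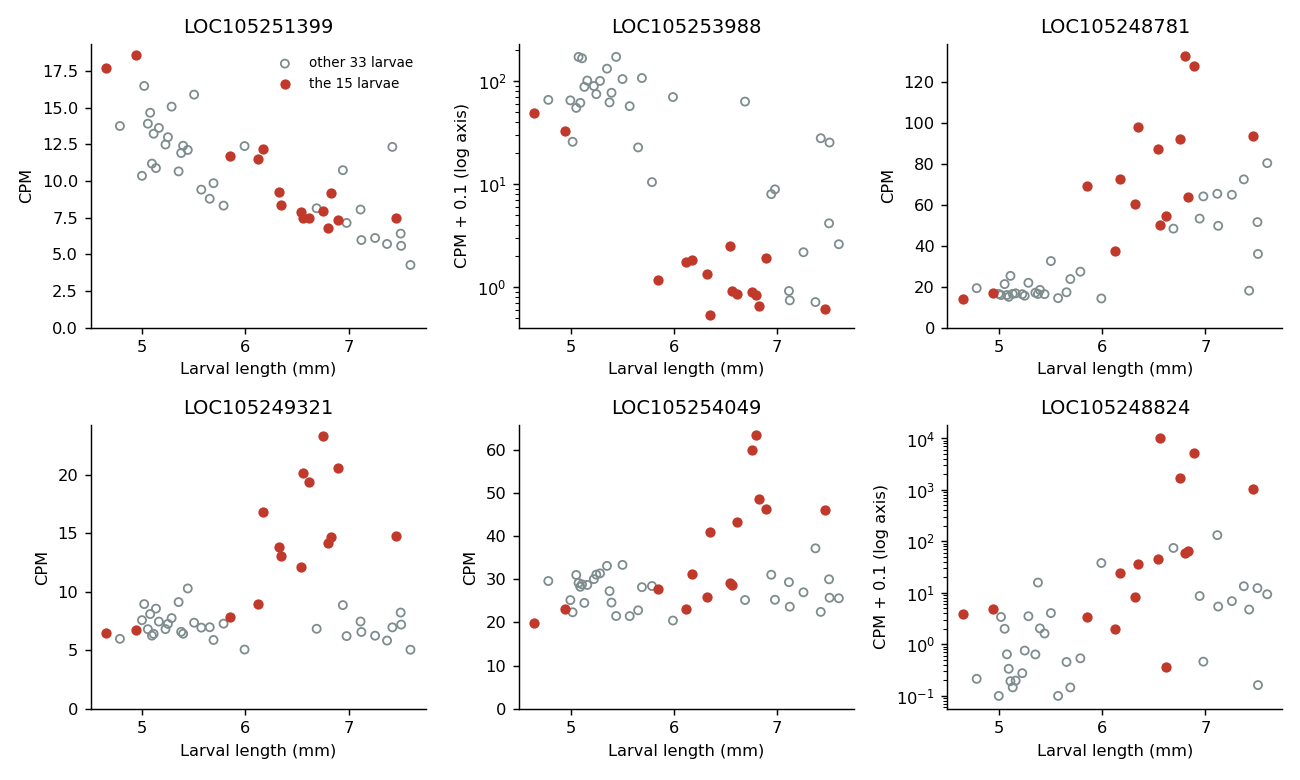
Level of 6 genes in CPM against larval length in mm, with the 15 larvae as filled points and the other 33 as open points; LOC105253988 and LOC105248824 are on log axes after adding 0.1 CPM. The upper row shows 2 falling genes, of which LOC105253988 was above 30 CPM in No. 15 and 9 and at most 2.44 in the longer larvae, and a rising gene, and the lower row shows LOC105249321 and LOC105254049, whose slopes differed between both sets, and LOC105248824, which was highest in No. 32, 3, 53 and 68, at 1049.5 CPM or more.

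The genes called in the 15 mostly moved the same way in the other 33 larvae, which share no animal with them. Of the 171, 154 (90.1%) had a slope of the same sign there, and 118 (69.0%) were also called in that direction, against backgrounds of 16.7% rising and 16.9% falling. No gene was called in opposite directions in both sets. By direction, 16 of the 28 rising genes (57.1%) and 102 of the 143 falling genes (71.3%) were called alike in the 33. The 118 genes were 3.37% of the 3502 calls of the 33 that were tested in both sets. Of those 3502 genes, 2901 (82.8%) had the same sign in the 15, while over all 10326 genes tested in both it was 67.3%.

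Across these 10326 genes, slopes in the 15 and in the 33 correlated with r = 0.613 and rho = 0.515. This is given as a description, because genes within a library are not independent replicates. With the slope in the 15 computed without No. 9 and 15, the correlation was r = 0.388 and rho = 0.185, and from the 12 intermediate larvae alone it was r = 0.443 and rho = 0.308. An unadjusted p under 0.05 in both sets was reached by 1042 genes, of which 1008 moved the same way and 34 (3.26%) moved in opposite directions. The slope was flatter in the 33 for 167 of the 171 genes. Since the 171 were selected on their slope in the 15, where the SE was larger, that count is a description as well.

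**Figure D4:**
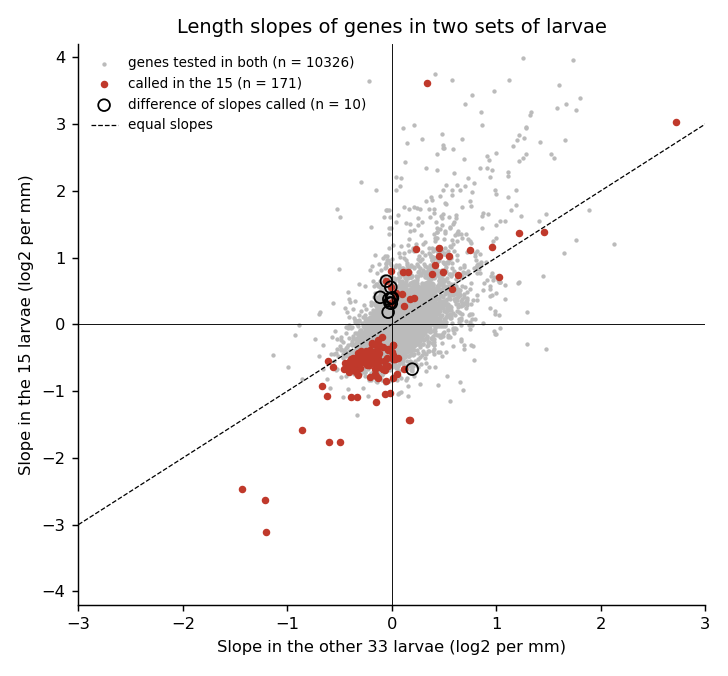
Slope of each of 10326 genes in the 15 larvae (y axis, log2 per mm) against its slope in the other 33 (x axis, log2 per mm), with the 171 genes called in the 15 in red, the 10 genes with a called difference circled and equal slopes dashed; 1 gene lies outside the plotted range. Most red points lie in the lower left and upper right parts, and 9 of the circled genes lie just above the middle, with positive slopes in the 15 and slopes near 0 in the 33.

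A test of the difference itself, the product of length and membership in a joint fit of all 48 larvae, called 10 of 10870 genes (0.092%). In 9 of them (0.0828%) the slope was higher in the 15 and in 1 (0.0092%) it was lower. At an unadjusted p under 0.05 stood 1598 genes, 14.7% of those tested. The same expression values chose the 15 larvae, which these p-values do not take into account. All 9 had a positive slope in the 15, but only 3 of them were called as rising there. The others had adjusted p-values of 0.0563 to 0.189 within the 15 (edgeR). In the 33, the slope of LOC105259449 was -0.11 (adjusted p = 0.0135), and those of the other 8 lay between -0.05 and 0.01, with none called (adjusted p of 0.224 to 0.93). Without No. 9 the count was 0, without No. 15 it was 1, and without No. 68 it was 273, with all 10 genes kept. DESeq2 called 165 genes, edgeR with upper-quartile factors 1, and edgeR with the transcript-length correlation as a covariate 280.

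LOC105249321 had the smallest p of the difference. It stood at 6.49 CPM in No. 15 and 6.75 in No. 9, at 7.88 to 23.3 CPM (median 14.4) in the 12 intermediate larvae and at 14.7 in No. 68. In the 33 it stayed between 5.05 and 10.3 CPM (median 6.96), so that both shortest larvae lay inside that range and 11 of the 13 longer ones above it. Its slope was 0.65 ± 0.14 log2 per mm in the 15, 1.06 within the 12 alone (not called) and -0.05 ± 0.04 in the 33, and the difference in the joint fit was 0.71 ± 0.12 (adjusted p = 0.00517, edgeR). LOC105254049 stood at 19.9 CPM in No. 15, 23.0 in No. 9, 23.2 to 63.5 (median 36.1) in the 12 and 46.0 in No. 68, against 20.4 to 37.2 in the 33. Of the 13 longer larvae, 7 lay above all 33, and the difference of slopes was 0.58 ± 0.11 (adjusted p = 0.0105, edgeR).

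The next genes moved less. LOC105250691 stood at 135 CPM in No. 15, 111 in No. 9 and 110 to 237 in the 12, against 128 to 177 in the 33. Above all 33 lay 9 of the 13 longer larvae, while 1 of the 13 and No. 9 lay below. The difference of slopes for LOC105250691 was 0.35 ± 0.07 (adjusted p = 0.0293, edgeR). LOC105252939 was at 14.9 and 14.2 CPM in the shortest pair and 17.0 to 27.8 in the 12, with a difference of 0.34 ± 0.07 (adjusted p = 0.0323). For LOC105259023 the difference was 0.23 ± 0.05 (adjusted p = 0.0422), with 1 of the 13 longer larvae above all 33, and for LOC105255833 it was 0.41 ± 0.09 (adjusted p = 0.047), with 10 of the 13 above. These 6 had the smallest p among genes of at least 5 CPM.

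The other 4 called genes were named after their values had been seen, and all had an adjusted p of 0.047 in edgeR. The difference was 0.42 ± 0.09 for LOC105248168, 0.41 ± 0.09 for LOC105256350 and 0.53 ± 0.12 for LOC105259449. LOC105256350 ran from 48.6 to 100.1 CPM in the 12 intermediate larvae and 34.2 to 49.9 in the 33, and 12 of the 13 longer larvae exceeded all 33. The single gene with a lower slope, LOC105248521, averaged 1.21 CPM in the 15. It was at 3.48 CPM in No. 15 and 2.15 in No. 9, above all 33 larvae (at most 1.15 CPM), and at 0.220 to 1.75 in the 12. Of the 13 longer larvae, 5 also lay above all 33 and 1 below. Its slope was -0.67 ± 0.23 in the 15, which was not called (adjusted p = 0.15, edgeR). In the 33 its slope was 0.20 ± 0.07 (adjusted p = 0.0361, edgeR), and the difference was -0.85 ± 0.19.

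The 8 genes with the most reads in the 15 gave slopes with wide errors, and none was called in edgeR. DESeq2 called 2 of them, LOC105257943 (adjusted p = 0.00823) and LOC105248920 (adjusted p = 0.00498). LOC105257943 was at 1243.5 CPM in No. 15, 1508.7 in No. 9, 1248.7 to 50117 (median 25651) in the 12 and 10035 in No. 68, and at 34.9 to 2786.9 CPM in the 33. Its slope was 1.62 ± 0.85 in the 15 (adjusted p = 0.339, edgeR) and 1.24 ± 0.23 in the 33, where it was called (adjusted p = 8.85e-05). LOC105248920 spanned 103 to 109490 CPM within the 15, with a slope of 3.31 ± 1.32 (adjusted p = 0.21, edgeR). It stood at 109490 CPM in No. 32, 86018 in No. 3, 14742 in No. 53 and 11654 in No. 68. In the rest of the 15 it was at most 1568.3 CPM. LOC105256665 stood at 24265 and 25699 CPM in No. 15 and 9, at 15221 to 81565 in the 12 and at 24933 in No. 68, with a slope of 0.38 ± 0.29 (adjusted p = 0.513). The slopes of LOC105250772, LOC105255423, LOC105251526, LOC109610429 and LOC105249081 lay between -0.35 and 0.32, with adjusted p-values of 0.321 to 0.829.

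Of the genes tested, 4 carry a symbol that is not a locus number. Trab and Traa, which bear the name of transformer, the regulator of sex-specific splicing in insects, had slopes of -0.28 ± 0.07 (adjusted p = 0.0502, edgeR) and -0.27 ± 0.14 (adjusted p = 0.319). Trab lay at the threshold and passed it in DESeq2 (adjusted p = 0.00754), limma-voom (0.0379), edgeR with robust estimation (0.0493), with upper-quartile factors (0.0186), with the transcript-length correlation as a covariate (0.0424) and without No. 4 (0.0425). Trab ran from 40.9 CPM in No. 15 and 36.6 in No. 9 through 21.9 to 40.9 in the 12 to 27.2 in No. 68, so the ranges overlapped. Makorin-1, named for a family of zinc-finger ubiquitin ligases, had a slope of -0.18 ± 0.18 (adjusted p = 0.635). Titin, a giant elastic protein of the muscle sarcomere, stood at 30.1 CPM in No. 15, 24.3 in No. 9, 23.6 to 60.4 in the 12 and 32.5 in No. 68. Its slope was 0.11 ± 0.14 in the 15 (adjusted p = 0.724) and 0.32 ± 0.06 in the 33 (adjusted p = 0.000346), and the difference of -0.20 ± 0.16 was not called (adjusted p = 0.589).

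Calls within the 15 were also counted by class of gene in the annotation. Of 9900 protein-coding genes tested, 26 rose (0.263%) and 136 fell (1.37%), and of 450 long non-coding RNAs 2 rose (0.444%) and 6 fell (1.33%). Of 122 pseudogenes, 1 was called, as falling (0.82%). Some called genes were neighbours, meaning consecutive in the order of the annotation. How many such runs the share of called genes alone would give was not tested. The longest run was LOC105249413, LOC105249412 and LOC105249411, all falling, and 5 further runs held 2 genes each. The 3 genes stood at 4.28, 7.76 and 11.5 CPM in No. 15 and at 4.43, 7.99 and 12.4 in No. 9. In the 12 intermediate larvae they ran from 1.30 to 2.55, from 2.42 to 5.52 and from 3.81 to 7.85 CPM, below both shortest larvae in every case. Their slopes were -0.55, -0.50 and -0.58 log2 per mm (adjusted p of 0.029, 0.0229 and 0.00379, edgeR), and in the 33 they also fell, with slopes of -0.39, -0.24 and -0.38.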

How the data were processed

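RNA with polyA tails from whole bodies of 48 female terminal larvae was sequenced as read pairs from directional libraries, per the labels' protocols. Tools listed in the submitters' processing notes are DESeq and DESeq2, Salmon, Trim Galore 0.6.7 and bcl2fastq 2.20. The sources used here give neither a genome build nor Salmon's version and strand setting. For each larva the authors deposited expected counts per transcript, as Salmon estimates them, and effective transcript lengths, recorded as a signal, per the file headers. A second deposited table, of normalized signal per transcript over all larvae, has 1 cell that is not a number and served only as an alternative, on log2(value + 1).

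Of 26315 transcripts, 25811 were matched to RefSeq genes by accession and 348 by symbol, and 155 carried tRNA names, giving 13878 genes. The remaining transcript names no gene, took at most 0.00124% of a library and was left out. No 2 libraries were identical. Summed counts per gene were rounded. After filterByExpr and TMM scaling, edgeR 4.0.16 (R 4.3.3) gave quasi-likelihood F tests per gene, and limma 3.58.1 and DESeq2 1.42.0 gave alternatives. The covariate was length in mm, fitted in the 15 larvae, in the other 33, and, with membership and the product of both, in all 48. Benjamini-Hochberg adjustment covered all genes tested, with a threshold of 0.05. The SE of a slope was taken as its size over the root of its F value. Printed levels are CPM after TMM scaling, and components used log2 CPM with a prior count of 2. The steps were tested on simulated data. Figures used Python 3.11.15 and matplotlib 3.10.9.

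The 15 larvae, the lists and the tests were chosen with earlier results of these data known. Named genes are, by smallest p in the 15, the first 8 that rose and the first 8 that fell among those averaging at least 5 CPM, the 6 of smallest p for a higher and for a lower difference of slopes at the same minimum, the 8 of highest mean CPM in the 15, symbols other than locus numbers, and runs of at least 3 neighbouring called genes. The only gene called with a lower slope was under 5 CPM. Planned lists of protein families, 18 in all, were not used here, because the gene table pairs accessions with symbols and not with products or proteins. No sequence or coordinate is printed.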

Additional observations from a re-analysis of the deposited data

Results flagged for a closer look

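The test of the difference of slopes between the 15 larvae and the other 33, a product term in edgeR's quasi-likelihood fit of all 48, marked 10 genes for a closer look, at an adjusted p of 0.00517 to 0.047. The slope was higher in the 15 by 0.71 log2 per mm for LOC105249321, by 0.58 for LOC105254049, by 0.35 for LOC105250691, by 0.34 for LOC105252939, by 0.23 for LOC105259023, by 0.41 for LOC105255833, by 0.42 for LOC105248168, by 0.41 for LOC105256350 and by 0.53 for LOC105259449. For LOC105248521 the difference was -0.85. LOC105249321 and LOC105254049 were each still called in 46 of 48 fits that left out 1 larva, and the others in 16 to 44. Of these fits, 33 left out a larva outside the 15. Without No. 9, and without No. 9 and 15 together, none of the 10 was called. Both shortest larvae of the 15 lay within the range of the 33 for 7 of the 10 genes, and in each of the 9 genes of higher slope at least 1 of the 13 longer larvae lay above all 33. The part of the choice of the 15 on their expression in these differences was not tested.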

How the results depend on the processing

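The count of genes changing with length within the 15 larvae was 303 with upper-quartile factors, 804 in DESeq2, 351 in limma-voom, 367 with the transcript-length correlation as a covariate, 968 from the fit of all 48, 0 without No. 9 and 15, 0 in the 12 intermediate larvae and 407 without No. 68. It ran from 15 to 407 when 1 larva was left out. Under its other alternatives it stayed within 1.5 times of 171. The count of differing slopes was 4 with RLE factors, 1 with upper-quartile factors, 29 without a filter, 165 in DESeq2 and 37 in limma-voom. It was 16 with log2 of length, 4 with an offset for effective transcript length and 6 in the authors' normalized table. As covariates, total count gave 3, the transcript-length trend 280 and the first-component score 113. Without No. 9 and 15 the count was 1, a gene of lower slope in the 15 that was not among the 10 of the main fit. It was 273 without No. 68, 2 without No. 42 and 43, 3 among larvae no longer than the longest of the 15 and 3 with squared length added. It ran from 0 to 273 over the 48 fits that left out 1 larva. The cause of these shifts was not tested.

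The share of called genes that were called alike in the 33 was 60.7% with upper-quartile factors, 60.2% in DESeq2 and 56.6% in limma-voom. As covariates, the transcript-length trend gave 60.7% and the first-component score 54.5%. Without 1 larva the share ran from 58.5 to 81.2%. These shares, the fits without each of the 33 and the relations within the 12 were added after seeing the data. Without No. 9 and 15, rho with length was 0.0275 for the transcript-length trend and -0.143 for the share of the top 10 genes, both opposite in sign. For the first component it was 0.736, which no longer passed. Slopes that turned without No. 9 and 15 were those of LOC105256665 (-0.316), LOC105255423 (-0.397), LOC105257943 (-0.759), LOC109610429 (-0.231), LOC105249081 (-0.323) and Titin (-0.258). In the 12 larvae those of LOC105255423 (-0.0371), LOC105257943 (-0.161), LOC109610429 (-0.204), LOC105249081 (-0.357) and Titin (-0.267) turned. LOC105251526 turned to 0.0112 with total count as a covariate, and LOC109610429 to -0.0253 without No. 15, in a range up to 0.199 over the fits that left out 1 larva. None of these genes was called within the 15 in edgeR. Of the remaining slopes of named genes under an alternative, 435 stayed on their side of the threshold, 42 no longer passed it and 7 newly passed it (5 of Trab, and LOC105257943 and LOC105248920 in DESeq2). No paired analysis was possible because the labels give 1 group and no shared replicate numbers. With 2 of the 15 shorter than 5850.88 µm and 1 longer than 6892.55 µm, few larvae set the precision of each slope.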
